A study of Mus musculus with 4 samples.

Results

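The transcription factor p53, encoded by *Trp53* in the mouse, was followed together with 9 genes that it controls or that act on it: *Mdm2*, *Trp53inp1*, *Cdkn1a*, *Ccng1*, *Sesn1*, *Bax*, *Bbc3*, *Pmaip1* and *Fas*. The 10 genes were chosen by name, out of 32585 genes or identifiers with a probe on the array (20144 with a gene symbol), and probes were assigned to them through RefSeq accessions. They were measured on 4 1-colour arrays, which held spinal cord or duodenum RNA of *IP6K2*-/- mice or of WT littermates, with 1 array for each genotype and tissue. IP6K2 is a kinase that adds a phosphate to inositol hexakisphosphate (IP_6_), so that a pyrophosphate group forms, and thereby makes the inositol pyrophosphate IP_7_. With a single array per group no difference has a replicate check, no test was made, and each value is only as precise as 1 array allows.

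All 4 groups are male mice of 20 weeks that were given a purified diet for 1 week in place of a standard diet and then fasted for 48 h. By their labels, the WT spinal cord and WT duodenum groups carry the normal gene. The groups labelled *IP6K2*-/- (labelled KO below) would carry a deletion of the exon of *Ip6k2* that encodes the kinase domain. This is taken from the study's paper, which describes the mouse line, diet and fasting but not these arrays. The labels do not say whether the spinal cord and the duodenum of a genotype came from 1 mouse.

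p53 is kept scarce in unstressed cells by the ubiquitin ligase Mdm2, and after DNA damage or other stress it accumulates and switches on genes that stop the cell cycle, limit oxidative damage or start apoptosis through the mitochondria and death receptors. The intestinal epithelium is a classical setting of p53-dependent apoptosis, whereas neurons of the adult spinal cord have left the cell cycle. IP6K2 has been linked to this pathway through IP_7_, which acts on casein kinase 2 (CK2) and the Tti1 and Tel2 proteins that stabilize the kinases DNA-PK and ATM, which phosphorylate p53. Much of the control of p53 is on the protein, which arrays of mRNA do not measure.

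*Ip6k2*, the targeted gene, had 1 probe. Its processed signal, an intensity after background subtraction by the scanner software, was 452 (WT) and 1320 (labelled KO) in the spinal cord, and 139 (WT) and 572 (labelled KO) in the duodenum. The signal was thus higher and not lower on both arrays with the KO label. After normalization (log2 of the signal minus the 75th percentile of the array) the difference, labelled KO minus WT, was 1.45 in the spinal cord and −0.21 in the duodenum. The value in the spinal cord goes against the label, and the sign in the duodenum turned with the scaling (2.80 on spiked-in controls). The position of the probe relative to the deleted exon was not known, and a probe outside that exon checks nothing, so each array is named by its label here.

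The tissue labels were checked with marker genes. The 14 markers of duodenal epithelium summed to 1.35 times the 75th percentile of the array in WT spinal cord, 3.19 in labelled KO spinal cord, 2662 in WT duodenum and 1382 in labelled KO duodenum. Each of the 14 was at least 2-fold higher in the duodenum in both genotypes, and the probe with the highest signal was that of *Fabp2*, a fatty acid-binding protein of enterocytes. The gene named with a marker list is the one with the brightest probe, which is no ranking of mRNA amounts. The 8 neuronal markers, led by the neurofilament gene *Nefl*, summed to 271, 261, 18.9 and 11.4 in the same order of arrays, and all 8 were at least 2-fold lower in the duodenum in both genotypes. *Fabp1*, *Alpi* and *Cdx2* were not well above background in either spinal cord, and *Nefm* was not in either duodenum. The tissues therefore carried the markers of their labels.

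The arrays differed in overall brightness. The 75th percentile of the signal was 905 in WT spinal cord, 971 in labelled KO spinal cord, 68.0 in WT duodenum and 323 in labelled KO duodenum. All 10 genes of the p53 group were nevertheless well above background on all 4 arrays, so none of their differences is a bound. Before normalization, all 10 had a higher signal on the labelled KO duodenum array than on the WT duodenum array, by 2.12-fold (*Bax*) to 8.07-fold (*Mdm2*), while the 75th percentile was 4.75-fold higher. Which genes lay above or below that common ratio is what the normalized differences show. The technical SD printed beside a difference was taken from probes with 10 spots per array, so it covers spots and not mice.

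In the duodenum, p53 itself and part of its targets were lower on the labelled KO array and the others were higher. *Trp53*, *Bax*, *Cdkn1a* and *Bbc3* were on the lower side, and *Mdm2*, *Ccng1*, *Trp53inp1*, *Sesn1*, *Pmaip1* and *Fas* on the higher side. Of the 10 genes 2 were at least 2-fold lower (*Bax* and *Trp53*), when 11.9% of the 21435 genes with a probe above background on at least 1 of the arrays were, and 0 were at least 2-fold higher, when 7.20% of all genes were. The median difference of the 10 was 0.23, against −0.11 for the 16816 genes measured on both arrays, of which 44.2% were above 0. With 10 genes, these counts do not set the group apart from the array as a whole.

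Scaling decides the sign of these values. When the spiked-in controls set the scale, the median gene differed by 2.89 in place of −0.11 in the duodenum, a shift of 3.01, and all 10 genes were higher on the labelled KO array, from 1.84 for *Bax* to 3.77 for *Mdm2*. Differences are therefore also given relative to the median gene of the same comparison. On that footing each of the 10 genes kept its direction in the duodenum under the alternatives, with *Trp53* between −1.22 and −0.81 and *Mdm2* between 0.76 and 1.15. Scaling on spiked-in controls and median centring add a constant per array and cannot change a value relative to the median gene, so they check nothing here, and averaging the probes of a gene changes only the median gene where a gene has 1 probe. *Cdkn1a* came nearest to the median gene on the lower side, at −0.13 under normexp background correction, and *Fas* on the higher side, at 0.11 under quantile normalization of the 4 arrays.

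**Figure D1:**
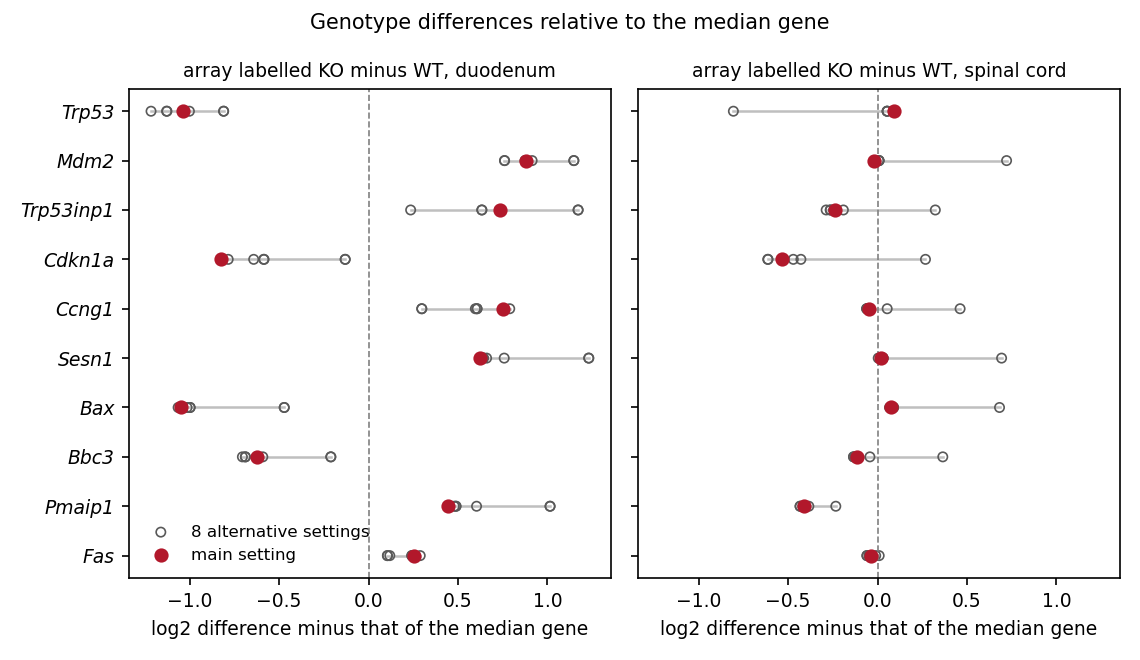
Genotype difference on the log2 scale (labelled KO minus WT), less that of the median gene, for each of the 10 genes in duodenum (left) and spinal cord (right), with the main setting filled and the 8 alternatives open. In the duodenum *Trp53*, *Cdkn1a*, *Bax* and *Bbc3* stay below 0 and the other 6 genes above 0 in all settings shown, and in the spinal cord *Pmaip1* stays below 0, *Bax* and *Sesn1* above 0, and the others reach both sides.

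The first group of genes holds p53 and its direct regulators. The *Trp53* probe (NM_011640) had a signal of 96.9 in WT spinal cord, 108 in labelled KO spinal cord, 43.7 in WT duodenum and 93.4 in labelled KO duodenum, which gave normalized log2 values of −3.22, −3.17, −0.64 and −1.79. Relative to its array, *Trp53* was highest in WT duodenum and lowest in the spinal cords, which lay side by side. In the duodenum it was 2.22-fold lower on the labelled KO array (log2 difference −1.15, technical SD 0.11), and 9.55% of genes had a lower difference. The spinal cord difference was 0.052, inside its technical SD of 0.093, and its sign turned under scaling on spiked-in controls (−0.12, with the median gene shifted by −0.17). Under normexp background correction it was −1.25, at a setting that shifted the median gene by −0.41, and 0.0034 with the local backgrounds that the software marked replaced.

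*Mdm2* encodes the ligase that marks p53 for degradation and is itself a p53 target. Its normalized log2 value was 2.75 in WT spinal cord, 2.69 in labelled KO spinal cord, 1.40 in WT duodenum and 2.17 in labelled KO duodenum. It was thus lowest in WT duodenum, the array in which *Trp53* was highest. The labelled KO duodenum was 1.70-fold higher (0.77, technical SD 0.074), the largest increase of the 10 genes at the main setting, and 11.8% of all genes had a higher difference. The spinal cord difference of −0.057 was inside the technical SD of 0.059.

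*Trp53inp1* encodes a nuclear protein that p53 induces and that in turn promotes phosphorylation of p53 and apoptosis. Its brighter probe had normalized log2 values of 0.41 in WT spinal cord, 0.13 in labelled KO spinal cord, 1.48 in WT duodenum and 2.10 in labelled KO duodenum. It was higher on the labelled KO array in the duodenum by 0.62 (technical SD 0.074) and lower in the spinal cord by 1.21-fold (−0.28, technical SD 0.058). A second, dimmer probe of the same transcript disagreed in the duodenum. Its values were −3.41, −3.78, −0.78 and −1.23 in the same order of arrays, so that it was lower by 1.37-fold in labelled KO duodenum (−0.45, technical SD 0.11) and lower by 1.30-fold in labelled KO spinal cord (−0.38, technical SD 0.10). The direction of *Trp53inp1* in the duodenum therefore depends on the probe, and in the spinal cord both probes were lower.

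The second group stops the cell cycle or limits oxidative damage. *Cdkn1a* encodes p21, the inhibitor of cyclin-dependent kinases through which p53 arrests cells. Its main probe was spotted 10 times on each array, with a mean signal of 8538 in WT spinal cord, 6154 in labelled KO spinal cord, 1092 in WT duodenum and 2704 in labelled KO duodenum. The normalized log2 values of single spots ran from 3.20 to 3.28 in WT spinal cord, 2.63 to 2.70 in labelled KO spinal cord, 3.86 to 4.06 in WT duodenum and 2.99 to 3.13 in labelled KO duodenum, with 1 spot left out as an outlier on each labelled KO array. At this scaling the spots of the 4 arrays did not overlap. The order from high to low was WT duodenum, WT spinal cord, labelled KO duodenum and labelled KO spinal cord. Which tissue was higher depended on the scaling. Quantile normalization put the duodenum lower in both genotypes (−0.15 in WT and −0.068 in labelled KO). So did cyclic loess, the deposited table and scaling on spiked-in controls.

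*Cdkn1a* was lower on the labelled KO array in both tissues. The fold was 1.92 in the duodenum (−0.94, technical SD 0.022) and 1.49 in the spinal cord (−0.57, technical SD 0.019). These technical SDs are for the mean over the spots of a probe spotted 10 times, which makes them smaller. For the spinal cord 3.34% of all genes had a lower difference. Normexp background correction reduced the values to −0.31 and −0.18, and relative to the median gene the latter became 0.27, the only alternative with that sign. The other *Cdkn1a* probe, listed under another transcript (NM_001111099), was well above background only on the WT spinal cord array, with a signal of 4.72, and gives no fold in the duodenum.

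*Ccng1* encodes cyclin G1, a p53 target that recruits a phosphatase to Mdm2. Its normalized log2 value was 0.19 in WT spinal cord, 0.10 in labelled KO spinal cord, −0.98 in WT duodenum and −0.34 in labelled KO duodenum. As with *Mdm2*, the lowest value was in WT duodenum. The labelled KO array was 1.56-fold higher in the duodenum (0.64, technical SD 0.11) and differed by −0.089 in the spinal cord (technical SD 0.059). Under normexp background correction the duodenum difference was 0.12 and the spinal cord difference 0.014.

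*Sesn1* encodes sestrin 1, which protects against oxidative stress and restrains mTORC1. Its normalized log2 value was 2.15 in WT spinal cord, 2.13 in labelled KO spinal cord, 2.87 in WT duodenum and 3.38 in labelled KO duodenum. The spinal cords differed by −0.019, well inside the technical SD of 0.057. The duodenum was 1.42-fold higher on the labelled KO array (0.51, technical SD 0.068), and normexp background correction raised this to 1.05.

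The third group starts apoptosis. *Bax* encodes the effector of the BCL2 family that permeabilizes the outer mitochondrial membrane. Its normalized log2 value was 1.33 in WT spinal cord, 1.36 in labelled KO spinal cord, 2.26 in WT duodenum and 1.09 in labelled KO duodenum. WT duodenum stood above the other arrays, which lay close together. The labelled KO duodenum was 2.24-fold lower (−1.16, technical SD 0.070), the largest decrease of the 10 genes at the main setting, and 9.36% of all genes had a lower difference. The spinal cord difference was 0.036 with a technical SD of 0.057.

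*Bbc3* encodes PUMA and *Pmaip1* encodes Noxa, both BH3-only proteins that neutralize antiapoptotic BCL2 proteins. *Bbc3* had normalized log2 values of −0.16 in WT spinal cord, −0.31 in labelled KO spinal cord, 1.15 in WT duodenum and 0.41 in labelled KO duodenum. *Pmaip1* had −1.09, −1.54, 3.19 and 3.52 in the same order. Both genes were thus high in the duodenum, and within the duodenum they pointed in opposite directions. *Bbc3* was 1.67-fold lower on the labelled KO array (−0.74, technical SD 0.080) and *Pmaip1* 1.26-fold higher (0.33, technical SD 0.067). Between the spinal cords *Bbc3* differed by −0.16 (technical SD 0.062), and *Pmaip1* was 1.36-fold lower (−0.45, technical SD 0.062), with 5.74% of all genes at a lower difference.

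*Fas* encodes the death receptor CD95. Its normalized log2 value was −1.47 in WT spinal cord, −1.55 in labelled KO spinal cord, −0.28 in WT duodenum and −0.14 in labelled KO duodenum. The genotypes lay close together in both tissues, at 0.14 in the duodenum (technical SD 0.093) and −0.077 in the spinal cord (technical SD 0.065).

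**Figure D2:**
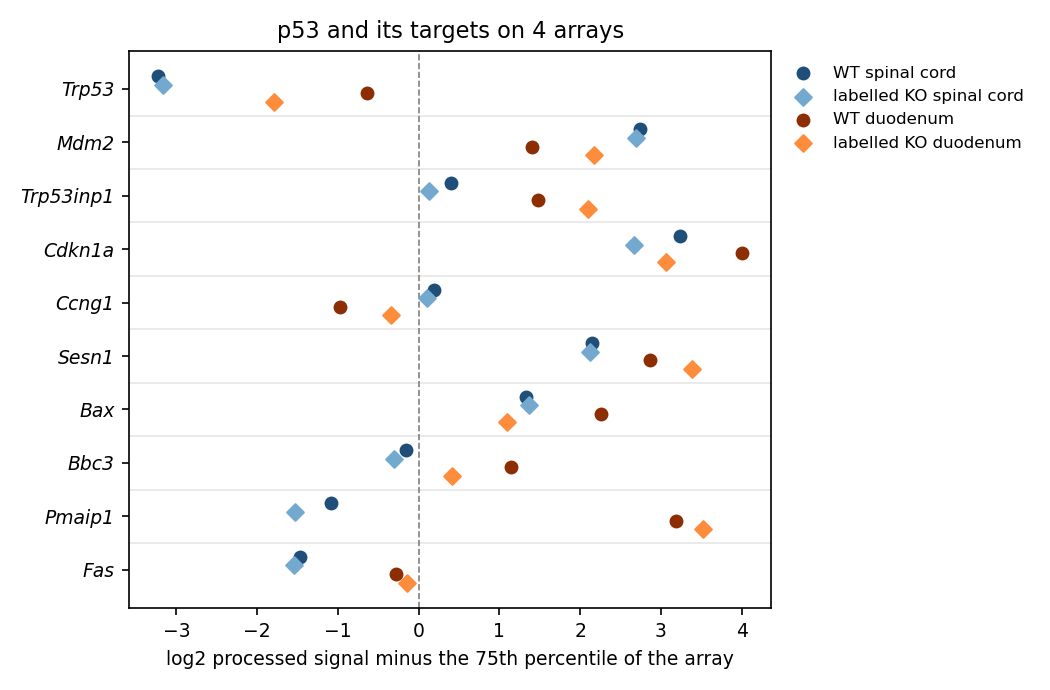
Normalized value of each of the 10 genes on each of the 4 arrays, as log2 of the processed signal minus the 75th percentile of that array (horizontal axis); circles are WT and diamonds labelled KO, in blues for spinal cord and browns for duodenum, with 1 array per point. The largest gap between spinal cords is that of *Cdkn1a* (3.24 and 2.66) and the largest between duodenums that of *Bax* (2.26 and 1.09); levels of different probes are not comparable.

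In the spinal cord as a whole, 0 of the 10 genes were at least 2-fold higher on the labelled KO array, when 2.28% of 25217 genes were, and 0 were at least 2-fold lower, when 0.864% were. The differences ran from −0.57 for *Cdkn1a* to 0.052 for *Trp53*, with a median of −0.083 against −0.038 for the 24166 genes measured on both arrays. The difference was larger than its technical SD for 6 of the 10 genes, all lower on the labelled KO array, when 40.9% of the genes measured on both arrays were lower by more than theirs and 26.9% higher. These were *Cdkn1a*, *Pmaip1*, *Trp53inp1*, *Bbc3*, *Ccng1* and *Fas*. Relative to the median gene *Ccng1* (−0.050) and *Fas* (−0.039) fell inside the technical SD, so that 4 of the 10 remained lower by more than it, when 32.2% of genes were, and 1 was higher (*Bax*, 0.074), when 33.0% of genes were.

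The genotype differences of the tissues were then subtracted from each other (duodenum minus spinal cord), which uses each array once and was not tested. The result was above 0 for 6 genes and below 0 for 4, with a median of 0.37 when the genes measured on all 4 arrays had a median of −0.12. *Trp53* and *Bax* were at −1.20 each, *Bbc3* at −0.59 and *Cdkn1a* at −0.36. *Trp53inp1* (0.90), *Mdm2* (0.82), *Pmaip1* (0.78), *Ccng1* (0.73), *Sesn1* (0.53) and *Fas* (0.22) lay on the other side. *Cdkn1a* and *Bbc3* were lower on the labelled KO array in both tissues by more than the technical SD. Taking each tissue alone, 50.5% (duodenum) and 40.9% (spinal cord) of genes were. The share of genes lower in both tissues was not counted, so these 2 genes have no baseline here. For *Bbc3* the spinal cord value relative to the median gene turned to 0.36 under normexp background correction. Scaling on spiked-in controls turned the sign for all 4 genes below 0, to 1.97 for *Trp53* and for *Bax*, 2.59 for *Bbc3* and 2.81 for *Cdkn1a*. For *Trp53* the sign also turned under normexp background correction (0.26). *Cdkn1a* changed sign under 4 of the 8 alternatives, the others being normexp with the marked backgrounds replaced (0.21), the deposited table (0.076) and quantile normalization (0.077).

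Between the tissues, *Pmaip1* stood out among the 10 genes. In WT mice it was 19.4-fold higher in the duodenum (4.28, technical SD 0.066), and on the arrays labelled KO 33.2-fold higher (5.05, technical SD 0.063). Of all genes 6.68% and 4.06% had a higher difference. Scaling on spiked-in controls shifted the median gene by −5.04 in WT and by −1.86 in labelled KO and turned the WT difference of *Pmaip1* to −0.76. Relative to the median gene *Pmaip1* was higher in the duodenum by 2.69 to 3.66 in WT and by 4.14 to 4.77 in labelled KO over the alternatives, those that cannot change this value included.

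Between the WT tissues 5 of the 10 genes were at least 2-fold higher in the duodenum, when 30.2% of 25219 genes were, and 2 were at least 2-fold lower, when 23.1% were. The 5 were *Pmaip1*, *Trp53* (2.59), *Bbc3* (1.31), *Fas* (1.19) and *Trp53inp1* (1.07), and the 2 were *Mdm2* (−1.34) and *Ccng1* (−1.17). Under the KO label 5 were at least 2-fold higher, when 30.3% of 25727 genes were, and 0 were lower, when 25.4% were. The 5 were *Pmaip1*, *Trp53inp1* (1.97), *Fas* (1.40), *Trp53* (1.38) and *Sesn1* (1.25). *Trp53*, *Pmaip1*, *Bbc3* and *Fas* stayed higher and *Mdm2* and *Ccng1* lower than the median gene in both genotypes under those alternatives that can change such a value. For *Bbc3* in labelled KO, however, the value was 0.019 under each normexp setting, inside the technical SD of 0.065. *Bax* was at 0.93 in WT and −0.27 in labelled KO, and *Cdkn1a* at 0.77 and 0.40. *Cdkn1a* kept its sign under 4 of the 8 alternatives in each genotype. Its values turned negative with cyclic loess (−0.25 in WT and −0.19 in labelled KO), quantile normalization (−0.15 and −0.068) and the deposited table (−0.15 and −0.070). Scaling on spiked-in controls made both negative too (−4.27 and −1.46). The median of the 10 genes was 1.00 in WT and 0.99 in labelled KO, against 0.63 and 0.30 for the median gene. On spiked-in controls 9 of the 10 genes were instead at least 2-fold lower in WT duodenum, when 92.3% of all genes were, and 5 in labelled KO duodenum, when 64.8% were.

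Distances between centred values over the 4 arrays were taken for 16185 genes or identifiers well above background on all 4. Only those with a gene symbol were ranked. The genes with a pattern most like that of *Trp53* were *Cd28* (Euclidean distance 0.024), *Tfap4* (0.044) and *Ndufaf8* (0.047). The genes most like *Cdkn1a* were *Klhl35* (0.10), *Gm3448* (0.11) and *Mb21d2* (0.12). Likeness over 4 arrays is a description of these arrays.

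Among 14 other members of the p53 family and regulators, 13 could be compared in the duodenum. In labelled KO duodenum 0 were at least 2-fold higher, when 7.20% of all genes were, and 1 was at least 2-fold lower, when 11.9% were. This was *Mdm4*, the Mdm2 relative that masks the transactivation domain of p53, with signals of 456 in WT spinal cord, 478 in labelled KO spinal cord, 70.8 in WT duodenum and 120 in labelled KO duodenum. It was 2.80-fold lower in labelled KO duodenum (−1.49, technical SD 0.092) and differed by −0.031 in the spinal cord, so that *Mdm4* lay on the side of *Trp53* and *Mdm2* on the other. Between the spinal cords 1 of the 14 was at least 2-fold lower, when 0.864% of all genes were. That gene was *Cdkn2a* (−1.02, technical SD 0.15), which encodes the Mdm2 inhibitor p19Arf and the kinase inhibitor p16Ink4a. The list medians were 0.18 (duodenum) and −0.050 (spinal cord).

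Next came the kinases and adaptors placed between IP_7_ and p53. The CK2 subunit genes *Csnk2a1*, *Csnk2a2* and *Csnk2b* differed by 0.13, −0.10 and −0.15 in the duodenum and by 0.0088, −0.12 and −0.067 in the spinal cord. *Tti1* was higher in labelled KO duodenum by 0.71 (technical SD 0.097) and its partner *Telo2*, which encodes Tel2, differed by −0.65 (technical SD 0.085). The spinal cord values of these adaptors were 0.13 and −0.14, and *Tti2* differed by 0.21 (duodenum) and −0.17 (spinal cord). *Prkdc*, the gene for the catalytic subunit of DNA-PK, was not well above background in WT duodenum and was at least 2.13-fold higher in labelled KO duodenum, with a spinal cord difference of −0.084.

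The other checkpoint kinases were *Atm* (−0.54 for duodenum and −0.10 for spinal cord) and *Atr* (0.76 and −0.14). *Chek2* was above background in labelled KO duodenum and not in WT duodenum, with a bound that gives no fold, and *Chek1* was above background in neither duodenum. The spinal cord value of *Chek2* was −0.041 and that of *Chek1* 0.69, with a technical SD of 0.32. Of the other IP_6_ kinases *Ip6k1* differed by 0.27 and −0.040, and *Ip6k3*, above background only in the spinal cord, by 0.40 there. Of the 14 genes of this axis 12 could be compared in the duodenum, where 1 was at least 2-fold higher (*Prkdc*), and 14 in the spinal cord, where 1 was (*Ip6k2*). Of all genes 7.20% (duodenum) and 2.28% (spinal cord) were at least 2-fold higher. In either tissue 0 genes of the axis were at least 2-fold lower, when 11.9% and 0.864% of all genes were. The medians of the axis were 0.065 and −0.054.

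Other p53 targets were counted in the same way, and the counts are to be read against the shares over all genes in the duodenum (7.20% higher and 11.9% lower). Of 21 targets for arrest and repair 20 could be compared there, and 2 were at least 2-fold higher and 4 at least 2-fold lower on the labelled KO array, with 12 above 0 and 7 below (median 0.25). The higher ones were *Dglucy* (1.44) and *Ddb2* (1.00), which encodes a sensor of ultraviolet damage. The largest decreases were *Plk3* (−1.94), a stress-responsive polo-like kinase, *Sfn* (−1.58), the 14-3-3 protein sigma of epithelia, and *Sesn2* (−1.23), the relative of *Sesn1*, which itself was at 0.51. Of 15 apoptotic targets 14 could be compared, and 3 were at least 2-fold higher and 0 lower, with 12 above 0 and 2 below (median 0.31). The 3 were *Triap1* (1.65), *Ei24* (1.46) and *Igfbp3* (1.03). Between the spinal cords 0 genes of either list passed 2-fold, when 2.28% of all genes were higher and 0.864% lower by as much. The list medians there were −0.035 and −0.039.

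The lists of the apoptotic machinery were counted too, and differences between the lists were not tested. Of all genes measured on both duodenum arrays 44.2% were above 0, with a median of −0.11. Of all genes counted, 7.20% were at least 2-fold higher and 11.9% lower in labelled KO duodenum. In labelled KO spinal cord these shares were 2.28% and 0.864%. Of the BCL2 family 13 of 15 genes could be compared in the duodenum, 0 passed 2-fold in either direction, and 8 were below 0, with a median of −0.51. Of 18 genes for caspases and the apoptosome 1 was at least 2-fold higher, the initiator caspase gene *Casp8* (1.47), and 2 were at least 2-fold lower, among them *Dffa* (−1.33), and 10 of the 18 were above 0, with a median of 0.28. Of 11 genes of the death receptor pathway 2 were at least 2-fold higher, *Casp8* again and the Fas ligand gene *Fasl* (1.27), and 0 lower, and 9 of the 11 were above 0, with a median of 0.23. Again 0 genes of these lists passed 2-fold in the spinal cord, where the medians were 0.014 for the BCL2 family, 0.047 for caspases and the apoptosome and −0.043 for the death receptor pathway.

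**Figure D3:**
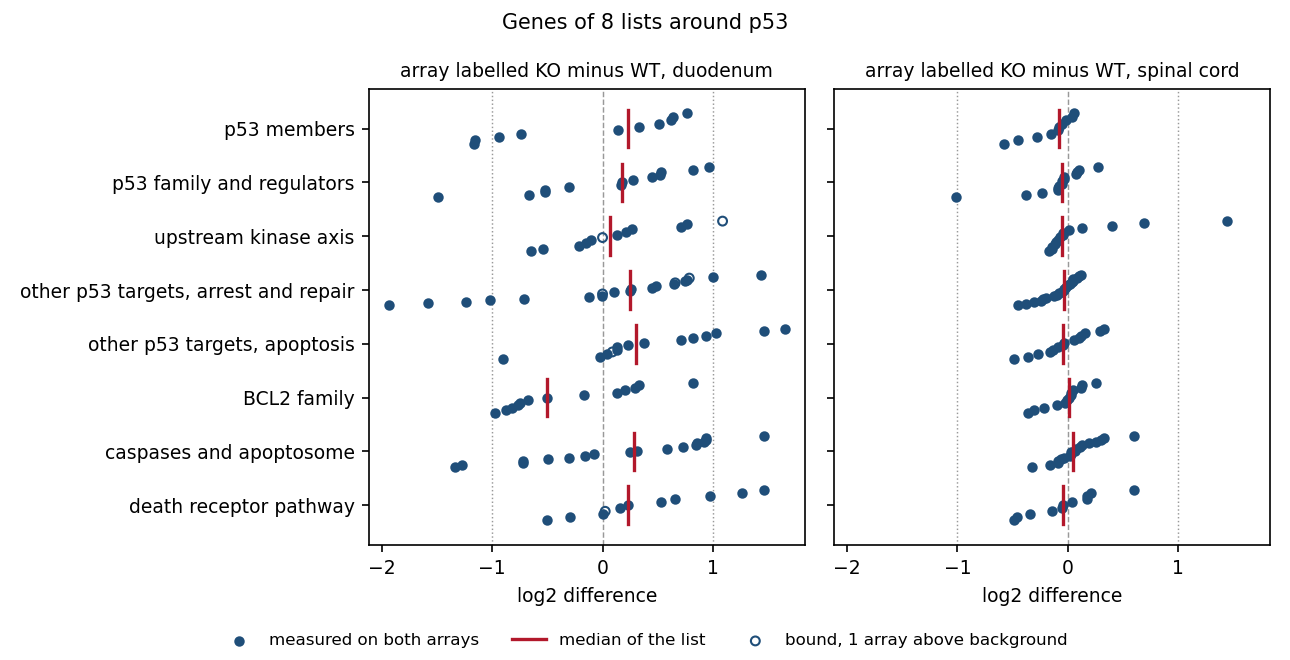
Genotype difference on the log2 scale (labelled KO minus WT) for every gene of 8 lists, in duodenum (left) and spinal cord (right). Filled points were above background on both arrays, open points are bounds, the red bar is the list median and dotted lines mark 2-fold; in the spinal cord *Ip6k2* (1.45) and *Cdkn2a* (−1.02) are the points past 2-fold.

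Markers of other cells moved with the genotype label in both tissues. In labelled KO spinal cord all 8 skeletal muscle markers were at least 2-fold higher (median 4.02), and their summed level was 64.1 times the 75th percentile against 4.01 in WT, with *Myh4* at 22.3 against 1.38. Of 6 peripheral nerve markers 5 were at least 2-fold higher (median 1.93; sum 14.8 against 2.52; *Prx* 7.79 against 0.21). Of 6 blood markers 4 were (median 1.18; sum 351 against 228; *Hba-a2* 192 against 149), as were 4 of 7 comparable lymphocyte markers (median 1.00; sum 1.13 against 0.68; *Cd3e* 0.23 against 0.31) and 4 of 11 comparable cell cycle genes (median 0.44; sum 10.8 against 10.1; *Pcna* 4.20 against 4.35). *Mylpf*, a muscle marker, and *Pmp2*, a nerve marker, were not well above background in WT spinal cord. The part of these tissues in the lower *Cdkn1a* and *Pmaip1* of labelled KO spinal cord was not tested.

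Markers of the spinal cord's own cells differed less between the spinal cord arrays. The medians were −0.056 for neurons, 0.17 for 7 oligodendrocyte markers (sum 241 against 231), −0.22 for 6 astrocyte markers (sum 54.0 against 62.4, *Aldh1l1* 9.36 against 11.0) and 0.29 for 5 markers of microglia and macrophages (sum 12.7 against 11.9, *Csf1r* 8.23 against 8.06). None of these lists had a gene past 2-fold in that comparison. A smaller share of a cell type and less of its mRNA per cell cannot be told apart in whole tissue.

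In the duodenum, all 6 blood markers were at least 2-fold lower on the labelled KO array (median −3.39), with a summed level of 88.4 against 1532 in WT and *Hba-a2* at 67.6 against 1233. Of 8 pancreatic acinar markers 5 were at least 2-fold lower (median −1.61; sum 4139 against 12495; *Ctrb1* 620 against 2794), as were 2 of 8 smooth muscle markers (median −0.66; sum 74.3 against 131; *Actg2* 14.2 against 41.6), 2 of 14 epithelial markers (median −0.15; *Fabp2* 381 against 1339) and 1 of 8 lymphocyte markers (median 0.020; sum 10.2 against 11.9; *Cd3e* 4.09 against 5.82). The cell cycle list had a median of 0.047 (sum 18.7 against 19.4; *Pcna* 5.20 against 7.14), with 1 of its 11 comparable genes at least 2-fold higher and 0 lower. All blood and acinar markers were well above background on both duodenum arrays. Their part in the lower *Trp53*, *Bax*, *Cdkn1a* and *Bbc3* of labelled KO duodenum was not tested.

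The remaining lists are given for the duodenum next. Skeletal muscle summed to 1.26 in labelled KO and 1.00 in WT duodenum (median −0.011, 1 gene at least 2-fold lower), peripheral nerve to 1.15 and 0.62 (median 0.31, 1 higher), neurons to 11.4 and 18.9 (median 0, 1 higher), oligodendrocytes to 6.08 and 4.49 (median 0.23, 1 higher and 1 lower), astrocytes to 28.7 and 24.8 (median 0.12, 0 past 2-fold) and microglia and macrophages to 14.2 and 18.9 (median −0.098, 1 higher and 1 lower). Between the spinal cords, the epithelial list had a median of 0.082 over 8 comparable genes and smooth muscle 0.072 over 7 (sum 6.40 against 3.90), each with 2 genes at least 2-fold higher on the labelled KO array. The acinar list had a median of −0.13 there (sum 0.57 against 0.54), with 0 genes past 2-fold.

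The sequence before the gene starts was read for the members because they share a transcription factor and did not move together. RefSeq promoter windows of GRCm38.p6 were on hand for 8 of the 10 genes (12 windows); *Pmaip1* and *Trp53inp1* were not among them. The 250 bases before each start were searched on both strands for the p53 half-site consensus, a 10-base motif that reads the same on both strands, and for the full p53 site, which is 2 half-sites with at most 13 bases between them. A half-site was found in 7.13% of the 32851 windows and a full site in 21 windows (0.064%). Of the 12 member windows 6 held a half-site, those of *Trp53*, *Cdkn1a*, *Mdm2*, *Bax*, *Ccng1* and *Sesn1*, and 1 of them, of *Cdkn1a*, held a full site. No half-site was present in the windows of *Bbc3* and *Fas*, nor in the other windows of *Cdkn1a* and *Sesn1*.

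The matches are printed 5′ to 3′ on the strand of the gene with up to 20 bases on each side, the half-sites in capitals, to show how they differ among genes that were lower (*Trp53*, *Cdkn1a*, *Bax*) and higher (*Mdm2*, *Ccng1*, *Sesn1*) in labelled KO duodenum. Each lies upstream of the annotated start that its own window precedes.
Trp53, chr11:69580264-69580313, plus strand: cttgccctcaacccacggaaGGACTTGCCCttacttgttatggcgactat
Cdkn1a, chr17:29090886-29090957, plus strand: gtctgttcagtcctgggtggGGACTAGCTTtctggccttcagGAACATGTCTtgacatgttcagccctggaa
Bax, chr7:45467070-45467119, minus strand: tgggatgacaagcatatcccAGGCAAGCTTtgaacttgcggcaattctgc
Mdm2, chr10:117710915-117710964, minus strand: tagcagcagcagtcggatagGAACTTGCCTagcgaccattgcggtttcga
Ccng1, chr11:40755442-40755491, minus strand: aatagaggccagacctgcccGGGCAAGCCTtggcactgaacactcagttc
Sesn1, chr10:41887246-41887295, plus strand: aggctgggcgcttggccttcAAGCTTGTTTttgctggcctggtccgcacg

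The half-sites of *Cdkn1a* start 73 and 51 bases before the annotated start of their window and are 12 bases apart. The single half-sites start 75 bases before the start of their window in *Trp53*, 201 in *Bax*, 186 in *Mdm2*, 185 in *Ccng1* and 173 in *Sesn1*. *Cdkn1a* and *Sesn1* each have a further annotated start, downstream of the half-sites in *Cdkn1a* and far upstream in *Sesn1*. Which start belongs to the transcript that the array probe detects was not worked out. Genes with a half-site in the window were thus found on both sides of the duodenum comparison, and a match of letters is a description of the window.

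These values come from 1 array per genotype and tissue, so variation between mice, dissection and labelling cannot be told apart from genotype. The arrays differed in brightness, most of all between the tissues in WT, and the sign of many differences turned with the scaling. Blood, acinar, muscle and nerve markers differed between the arrays compared. The *Ip6k2* probe did not settle the genotype labels. By PCR for the deleted exon, the study's paper reports no transcript of this gene in organs of *IP6K2*-/- mice. By Western blot of cerebrum, the paper also reports loss of the protein. Its text does not describe these arrays. mRNA was measured, whereas p53 is controlled largely as a protein, and its level, phosphorylation and binding to DNA were not measured. Apoptosis itself was not measured either, and probe sequences were not available to check what each probe detects.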

How the data were processed

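RNA of spinal cord and duodenum was measured on 4 1-colour mouse arrays. The authors deposited, per array, scanner output from Agilent Feature Extraction 11.5.1.1 (named in the submitters' processing notes), whose processed signal is an intensity, background-subtracted and detrended within the array. The authors also deposited a table of log2 values normalized between arrays. Control spots and outlier spots (89 to 133 of 43020 per array) were omitted, log2 processed signals were averaged per probe, and each array's 75th percentile was subtracted. Of 26391 probes with an NM accession, 25868 matched 1 RefSeq symbol (GRCm38.p6). A gene was represented by its brightest probe on average. No probe was saturated.

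A gene was counted where its probe was well above background on at least 1 array; with only 1, the difference is a bound against the higher of the dim probe's own value and the lowest value well above background (−7.66, −7.82, −3.99 and −6.22 for WT and labelled KO spinal cord, then WT and labelled KO duodenum), and 0 where that allows no fold. For each array, the median spot SD of the 50 probes nearest in brightness was taken, among 399 spotted 10 times. Its square was divided by the number of spots of the probe in question. The technical SD of a difference is the square root of the sum of these values over both arrays. It therefore applies to the mean of a probe's spots, and is smaller for *Cdkn1a*, spotted 10 times, than for a probe with 1 spot. Python 3.11.15, numpy 2.4.6, pandas 2.3.3, matplotlib 3.10.9, R 4.3.3 and limma 3.58.1 were used. The difference and counting functions were tested on simulated data.

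The members and lists were chosen with earlier results of these data known. Named genes are all members, *Ip6k2* and the upstream kinase axis. For each other pathway list and genotype comparison they are at most the 3 largest increases and 3 largest decreases past 2-fold. Also named are the gene with the brightest probe of most marker lists, and the 3 genes with a symbol nearest in pattern to *Trp53* and *Cdkn1a*. Marker genes named as not above background, or as past 2-fold on a plot, were chosen after their values were seen. *Ptprv*, *Cd68* and *Ahsp* had no probe matched. Alternatives were normexp (offset 50, on median signals) with and without flagged local backgrounds replaced, quantile normalization, cyclic loess, median centring, scaling on 8 spiked-in E1A probes, averaging all probes per gene and the deposited table, plus, where genes were counted, other filters and 1.5-fold.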

Additional observations from a re-analysis of the deposited data

Results flagged for a closer look

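For 4 of the 10 genes the genotype difference had opposite directions in the tissues, each larger than its technical SD: in labelled KO duodenum they were higher than in WT, and in labelled KO spinal cord lower. The difference between the tissues was 0.90 for *Trp53inp1*, 0.78 for *Pmaip1*, 0.73 for *Ccng1* and 0.22 for *Fas*. Among the 16185 genes measured on all 4 arrays 15.6% met the same rule in that direction and 12.5% in the other. Relative to the median gene of each comparison *Ccng1* and *Fas* no longer met it, since their spinal cord values (−0.050 and −0.039) were inside the technical SD, and *Bax* met it the other way (−1.05 in the duodenum, 0.074 in the spinal cord). The shares of all genes were then 13.3% in the first direction and 13.8% in the other. With 1 array per group these differences were not tested. The second probe of *Trp53inp1* was lower in both tissues and gave −0.074. *Ccng1* was at 0.12 (duodenum) and 0.014 (spinal cord) under normexp background correction, so that its directions were no longer opposite. *Pmaip1*, *Fas* and *Trp53inp1* kept opposite signs under all 8 alternatives run for single genes. Scaling on spiked-in controls put every member higher in labelled KO duodenum and lower in labelled KO spinal cord, so it checks nothing here. Relative to the median gene, normexp background correction gave *Trp53inp1* the same sign in both tissues (duodenum 1.17, spinal cord 0.32). The same held for *Fas* (0.24 and 0.0090), whereas *Pmaip1* kept opposite signs. Without that reference *Fas* was also often inside its technical SD. In the duodenum (technical SD 0.093) it was at 0.052 under cyclic loess and 0.062 under each normexp setting, and in the spinal cord (technical SD 0.065) at −0.045 under cyclic loess and −0.060 under normexp with marked backgrounds replaced. *Trp53inp1* was at 0.086 in the duodenum with its probes averaged.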

How the results depend on the processing

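No paired analysis was possible because every group was a single array. Values below replace main medians of 0.23 (genotype, duodenum), −0.083 (genotype, spinal cord), 1.00 (tissue, WT), 0.99 (tissue, labelled KO) and 0.37 (difference of genotype differences). Signal over background limits dim probes most, in WT duodenum.

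Scaling on spiked-in controls gave medians of 3.24, −0.25, −4.04, −0.88 and 3.55 in that order. In the duodenum 10 genes were then at least 2-fold higher and 0 lower, when 96.2% of all genes were higher. Between tissues 0 were higher and 9 lower in WT, when 92.3% of all genes were lower, and 1 higher and 5 lower in labelled KO, when 64.8% were lower. The counts thus say nothing of the 10 genes. It turned *Trp53* to 1.85 and *Bax* to 1.84 in the duodenum, and to 1.97 each in the difference of differences; between tissues in WT *Trp53* to −2.45, *Bbc3* to −3.73, *Fas* to −3.85, *Trp53inp1* to −3.97, *Pmaip1* to −0.76 and *Ip6k2* to −3.00; in labelled KO *Trp53* to −0.48, *Fas* to −0.46 and *Sesn1* to −0.61. By construction it adds 1 constant per array.

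Normexp gave medians of 0.090 in the duodenum, 0.63 and 0.85 between tissues in WT and labelled KO, with 1 gene higher (*Sesn1*) and 0 lower in the duodenum (3.93% and 14.3% of all genes), 1 lower in the spinal cord (*Trp53*, when 38.3% of all genes were lower), 2 higher and 1 lower between tissues in WT (18.3% and 11.4% of all genes), and *Trp53* at 0.26 in the difference of differences. With flagged backgrounds replaced the medians were 0.090, 0.47, 0.85 and, for the difference of differences, 0.17; 1 gene was higher and 0 lower in the duodenum (3.92% and 14.3% of all genes), and 3 higher and 1 lower between tissues in WT (31.0% and 13.2%). Quantile normalization gave medians of 0.31, 0.75 and 0.78 and the deposited table had 0.31, 0.74 and 0.78 (duodenum, then tissues in WT and labelled KO), each with 1 gene lower in the duodenum (8.79% and 8.75% of all genes). Cyclic loess gave 0.70 and 0.68 between tissues, with 1 gene lower in labelled KO (27.0% of all genes). Median centring gave 1.22 and 1.26, with 1 gene lower in WT (20.4% of all genes). The mean of a gene's probes gave 0.11 in the duodenum and 1.22 between tissues in WT. For these the cause was not tested.

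At 1.5-fold, the duodenum had 3 genes higher and 4 lower (17.0% and 22.6% of all genes), and 8 were higher between tissues in WT (35.2%), which follows from the threshold. The other filters on dim probes left the counts of the 10 genes as they were. Of 432 values for single genes under the alternatives, 175 moved by less than the technical SD, 243 moved further and 14 past 2-fold changed sign.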
